A study of Mus musculus with 12 samples.

Results

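The kinetochore is the protein assembly that joins each chromosome to the spindle, and its genes were described across pituitary tumors of POMC KO mice and normal mouse pituitary. The list held 33 genes, fixed by name for their role, among 18193 genes that a probe set of the array named alone. Each gene was represented by the probe set with the highest mean signal over the 12 arrays. The list counts 7 checkpoint proteins, 4 subunits of the chromosomal passenger complex, 2 mitotic kinases, 5 genes of the microtubule-binding outer kinetochore, 2 of the Mis12 complex, 8 of centromere chromatin and the inner kinetochore, and 5 of the corona and Rod-Zw10-Zwilch complex.

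POMC codes for pro-opiomelanocortin, the hormone precursor made by melanotrophs and corticotrophs of the pituitary, and mice that lack 1 or both copies of the gene develop pituitary tumors spontaneously. RNA was hybridized to Affymetrix Mouse Genome 430 2.0 arrays: 8 arrays came from heterozygous POMC KO mice, which keep 1 intact copy, 2 from homozygous POMC KO mice, and 2 from normal pituitary. No mouse was treated. The labels give neither strain, age nor sex, and they name the tissue as pituitary, which the methods describe as spontaneous tumor tissue in the KO mice. The methods also speak of pooled normal pituitary, and how many glands went into each normal array is not given in the sources used here. Values are log2 signals, on which 1 unit is a 2-fold difference.

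The tumor arrays fell into pairs by their numbers, with a correlation of 0.997 across probe sets within each pair and a largest difference of 0.60 for any gene of the list. Each pair was averaged and counted once, so that heterozygous tumors A, B, C and D, 1 homozygous tumor and 2 normal pituitary samples were compared. The series record speaks of 8 heterozygous, 2 homozygous and 2 normal mice, which is 1 mouse per array, while the values fall into near-identical pairs. Whether the arrays of a pair are separate mice or the same tumor is not settled by the sources used here, so n counts pairs, and the p-values measure the spread between these samples only. With the 12 arrays taken as separate samples, 25 genes of the list were called in heterozygous tumors, 18 in the homozygous tumor and 1, Kntc1, between the tumor genotypes, against 25, 9 and 0 with pairs averaged. Of all 12305 genes tested, 5.73% and 3.09% were called higher against normal with separate arrays, and 5.57% and 1.43% with pairs averaged. Between the tumor genotypes, 113 of all genes tested were called lower with separate arrays and 6 with pairs averaged. The homozygous sample has no spread of its own and was assumed to vary like the other groups. Pomc, the targeted gene, had a log2 signal of 7.18 in the homozygous tumor, 15.15 to 15.30 in heterozygous tumors, and 15.08 and 15.11 in normal pituitary. The level in the homozygous tumor was far below all other samples, as its label implies.

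In a dividing cell, the inner kinetochore marks the centromere around a variant histone and carries the outer kinetochore, whose Ndc80 complex binds spindle microtubules. While a kinetochore is unattached, checkpoint proteins gather on it and block Cdc20, the activator of the anaphase-promoting complex, so that sister chromatids do not part too early. The chromosomal passenger complex releases faulty attachments through its kinase, Aurora B. Many of these genes are transcribed mainly late in the cell cycle, and most hormone cells of the adult pituitary seldom divide.

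The promoters of 28 of the 33 genes are in the RefSeq table for GRCm38.p6, which gives 250 bases before and 50 bases from each start, 32 promoters in all. Aurkb, Incenp, Spc24, Zwilch and Ska1 have no entry there. A pair of short motifs were searched on both strands. The CHR element (TTTGAA or TTCGAA) is the site through which MuvB complexes silence late cell cycle genes in resting cells and switch them on before mitosis, and the CCAAT box binds the factor NF-Y. The 6 stretches below each run from 100 bases before the start to 50 bases from it, 5′ to 3′ on the strand of the gene. They are examples of genes called higher in both genotypes and, with Bub3, of a gene called in neither. Bub1 (chr2:127831810-127831959), Cdc20 (chr4:118437294-118437443) and Cdca8 (chr4:124936868-124937017) lie on the minus strand, and Cenpa (chr5:30666786-30666935), Birc5 (chr11:117849137-117849286) and Bub3 (chr7:131560270-131560419) on the plus strand. Capitals mark matches to either motif, and in Cdca8 the CHR element and a CCAAT box overlap in one run of capitals.
Bub1: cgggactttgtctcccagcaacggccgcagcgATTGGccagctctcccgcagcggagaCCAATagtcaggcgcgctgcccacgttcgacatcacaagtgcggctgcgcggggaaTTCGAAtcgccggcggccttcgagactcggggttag
Cdc20: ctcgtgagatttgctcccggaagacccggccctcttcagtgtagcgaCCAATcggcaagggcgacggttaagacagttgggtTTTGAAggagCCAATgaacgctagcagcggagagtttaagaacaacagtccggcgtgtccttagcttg
Cdca8: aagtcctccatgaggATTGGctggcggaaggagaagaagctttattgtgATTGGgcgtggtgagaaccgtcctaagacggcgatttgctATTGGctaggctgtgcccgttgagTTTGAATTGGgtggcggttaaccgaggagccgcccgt
Cenpa: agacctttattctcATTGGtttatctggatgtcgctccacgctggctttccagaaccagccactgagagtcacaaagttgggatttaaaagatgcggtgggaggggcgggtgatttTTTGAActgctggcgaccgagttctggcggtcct
Birc5: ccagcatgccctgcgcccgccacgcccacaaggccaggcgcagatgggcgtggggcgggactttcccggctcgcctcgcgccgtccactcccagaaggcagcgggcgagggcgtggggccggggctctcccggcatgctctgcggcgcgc
Bub3: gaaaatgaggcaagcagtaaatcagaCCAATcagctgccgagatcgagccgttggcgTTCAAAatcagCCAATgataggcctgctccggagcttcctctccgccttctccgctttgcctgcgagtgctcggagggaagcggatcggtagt
Bub1, Cdc20, Cdca8 and Cenpa, all higher in both genotypes, hold a CHR element close to the start. Birc5, also higher in both, holds neither motif in this stretch, and Bub3, which did not pass the test in either genotype, holds both. Of the genes higher in both genotypes that are not shown, Ttk holds both motifs in its window and Cenpp neither. Incenp and Ska1 have no entry.

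A CHR element whose first base lies within 50 bases of the start was found in 13 of the 32 promoters, or 40.6%, against 5.31% of all 32851 promoters of the table. A CCAAT box was found anywhere in the window of 24 of them, or 75%, against 37.4% of all promoters. Both together, with the CHR element close to the start, occurred in 12 promoters of the list, or 37.5%, against 2.24% of all. The 2 motifs overlap in 2 promoters of the list. Genes called higher in heterozygous tumors had a CHR element close to the start in 45.5% of 22 promoters, and the genes not called or not tested in 30% of 10. A match describes letters in the window and is not a measured binding site.

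**Figure D1:**
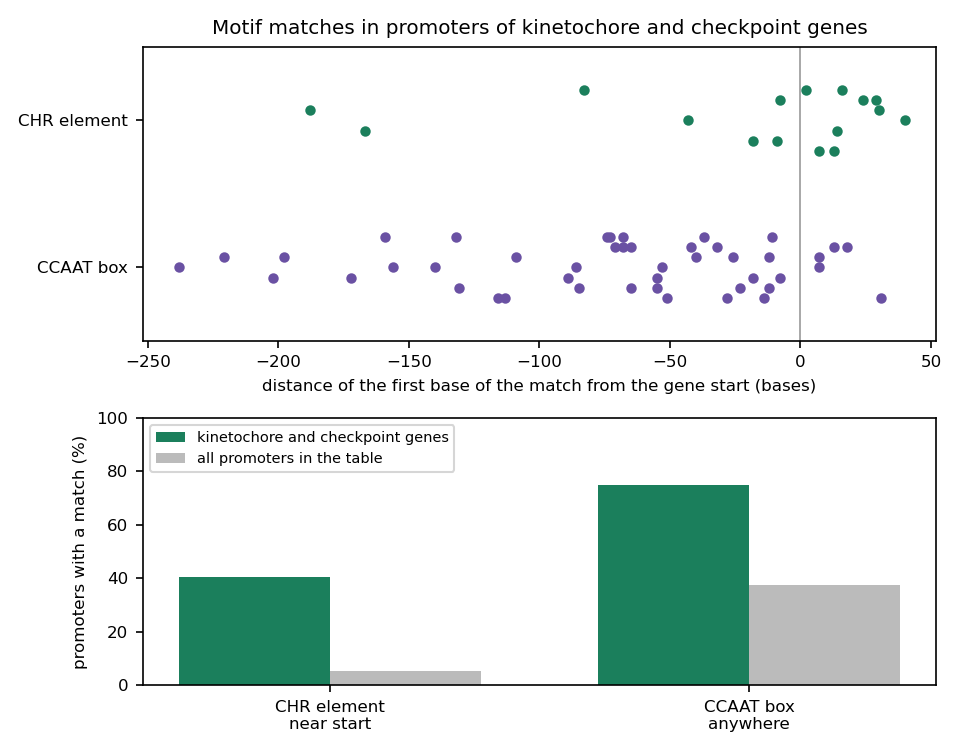
Upper panel, each point is 1 match to the CHR element or the CCAAT box in the 32 promoters of the list, placed by the distance in bases of its first base from the gene start (0). Lower panel, percentage of promoters with a match; a CHR element close to the start was found in 40.6% of promoters of the list and 5.31% of all promoters in the table.

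Most of the kinetochore and checkpoint genes were higher in heterozygous POMC KO tumors than in normal pituitary. A gene was called when its adjusted p from limma, over all 24486 probe sets tested, was below 0.05 and the fold difference exceeded 2. In heterozygous tumors 25 of the 33 genes were called higher and none lower, whereas 5.57% of the 12305 genes tested were called higher. The median log2 fold change was 1.58 over the 32 genes tested and 0.00 over all genes tested. All 4 heterozygous tumors lay above both normal samples for 28 of these 32 genes, against 25.4% of all genes. One gene, Mad1l1, was too dim to be tested, and 7 were tested and not called: Bub3, Plk1, Mis12, Dsn1, Cenpn, Cenpq and Zwint.

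A gene was tested when at least 2 arrays reached the overall median signal of 5.74. Of the 32 genes tested, 16 had both normal values under this median and passed through the tumors alone. Some tumor values of these genes had to exceed normal pituitary, so their rise is partly fixed by the filter and its size is not exact. A call was not forced, and Dsn1, one of the 16, was not called. Of the other 16, which normal pituitary itself expressed at or above the median in at least 1 sample, 10 were called in heterozygous tumors and 3 in the homozygous tumor, all higher. Of all 11676 genes tested that met the same condition, 3.85% were called higher in the heterozygous comparison and 0.908% in the homozygous one. With no filter on low signals all 33 genes were tested, and 25 were called in heterozygous tumors and 9 in the homozygous tumor, again all higher. Over all genes tested that way, 3.83% and 0.956% were called higher in the heterozygous and homozygous comparisons. In whole tissue, more cells of a kind and more RNA per cell cannot be told apart.

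**Figure D2:**
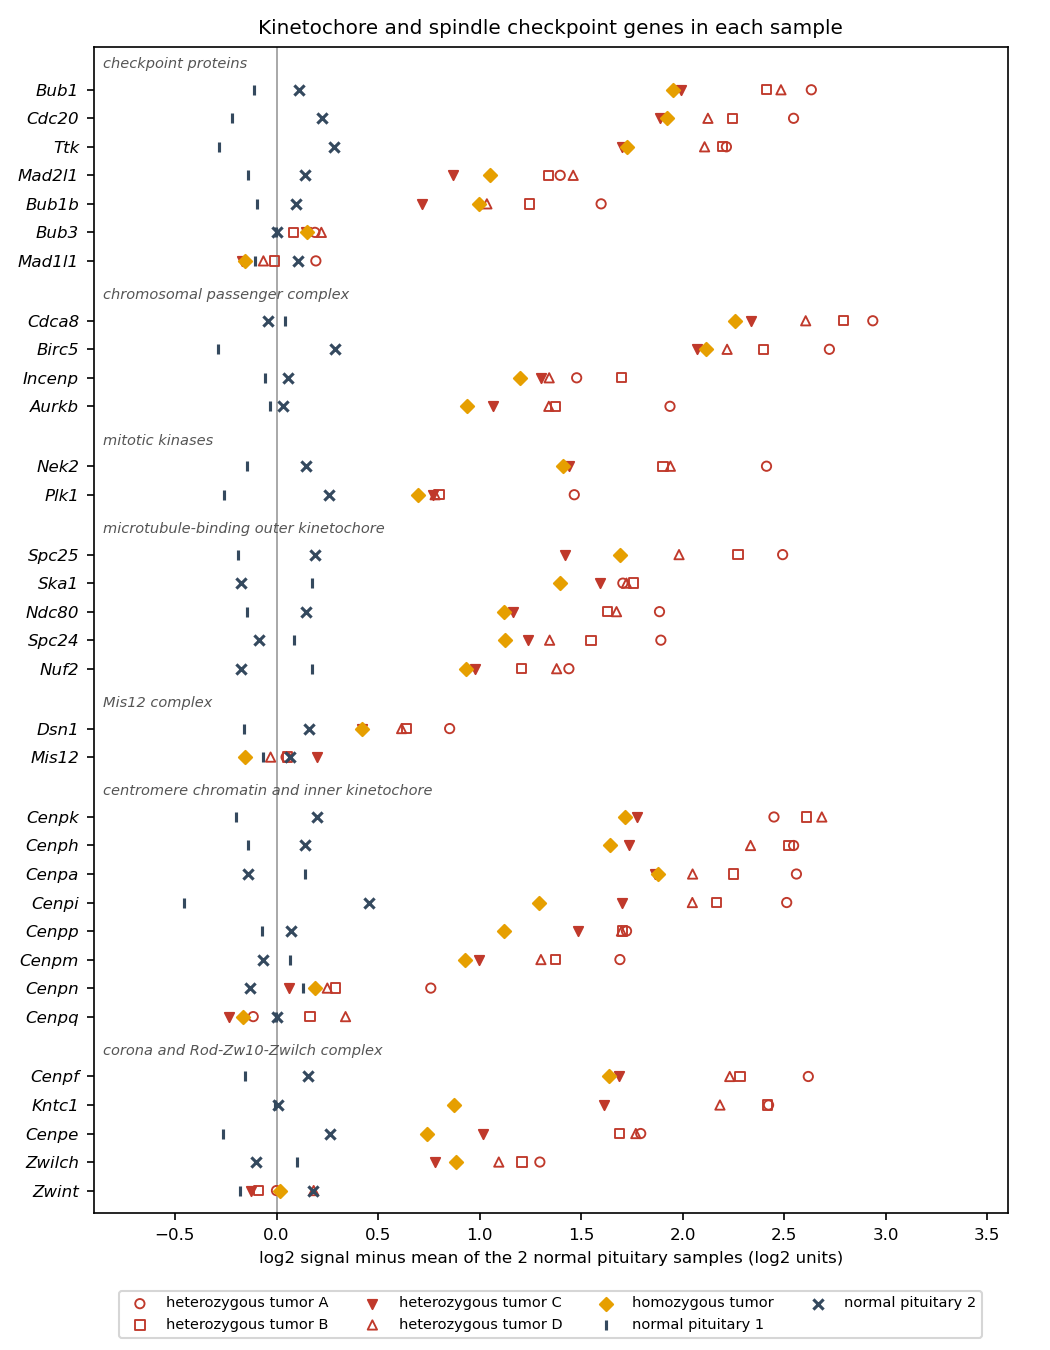
Log2 signal of each of the 33 genes in each sample, minus the mean of the 2 normal pituitary samples, grouped by role. Red symbols are heterozygous tumors, orange diamonds the homozygous tumor and dark symbols normal pituitary; tumor C (filled triangles) is the lowest of the heterozygous tumors for all 25 genes called.

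Among the checkpoint proteins, 5 of 7 rose in heterozygous tumors and 3 of these, Bub1, Cdc20 and Ttk, also in the homozygous tumor. Bub1 is the kinase that recruits other checkpoint proteins to the kinetochore. Its log2 signal (probe set 1424046_at) was 7.09, 6.87, 6.45 and 6.94 in heterozygous tumors A to D, 6.41 in the homozygous tumor, and 4.35 and 4.57 in normal pituitary. Every tumor was well above both normal samples, and the homozygous tumor was close to heterozygous tumor C. The log2 fold change was 2.38 in heterozygous tumors (SE 0.19, adjusted p = 0.000439), a 5.20-fold increase, and 1.95 in the homozygous tumor (SE 0.27, adjusted p = 0.0185).

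Cdc20, the protein that the checkpoint restrains, had log2 signals (1439377_x_at) of 9.54, 9.24, 8.88 and 9.12 in heterozygous tumors, 8.92 in the homozygous tumor, and 6.77 and 7.22 in normal pituitary. All tumors lay above both normal samples, and normal pituitary expressed the gene clearly, with both values over the median. Cdc20 was 4.60-fold higher in heterozygous tumors (log2 fold change 2.20, SE 0.21, adjusted p = 0.000706) and 3.80-fold higher in the homozygous tumor (1.92, SE 0.29, adjusted p = 0.0246). Ttk, also named Mps1, the kinase that starts checkpoint signaling, had log2 signals (1449171_at) of 6.90, 6.88, 6.39 and 6.79 in heterozygous tumors, 6.41 in the homozygous tumor, and 4.41 and 4.97 in normal pituitary. Tumor C and the homozygous tumor were again the lowest tumors. Ttk had a log2 fold change of 2.06 in heterozygous tumors (SE 0.21, adjusted p = 0.000934) and 1.73 in the homozygous tumor (SE 0.29, adjusted p = 0.0332).

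Mad2l1 and Bub1b, which code for the checkpoint proteins Mad2 and BubR1 that bind Cdc20, were also called. Their log2 fold changes in heterozygous tumors were 1.27 for Mad2l1 (adjusted p = 0.00407) and 1.15 for Bub1b (adjusted p = 0.0126). Bub1b was not called without tumor A (0.9999, just under 2-fold) or without normal sample 1 (adjusted p = 0.100) or 2 (adjusted p = 0.0612). In the homozygous tumor they were 1.05 (adjusted p = 0.0953) and 0.999 (adjusted p = 0.167), and neither was called. Bub3, the partner that carries Bub1 and BubR1 to the kinetochore, had a log2 signal (1416815_s_at) of 11.33, 11.22, 11.28 and 11.36 in heterozygous tumors, 11.29 in the homozygous tumor, and 11.13 and 11.14 in normal pituitary. All tumors lay slightly above both normal samples, at a log2 fold change of 0.16 in heterozygous tumors (95% interval -0.08 to 0.40, adjusted p = 0.307). Mad1l1, which anchors Mad2 at the kinetochore, had signals under the median in every sample, at 5.01 to 5.37 in heterozygous tumors, 5.02 in the homozygous tumor, and 5.08 and 5.28 in normal pituitary. Its groups overlapped.

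All 4 subunits of the chromosomal passenger complex rose in heterozygous tumors, and Cdca8, Birc5 and Incenp also in the homozygous tumor. Cdca8 codes for borealin, which helps target the complex to centromeres, and its log2 signal (1436847_s_at) was 8.46, 8.32, 7.86 and 8.13 in heterozygous tumors, 7.79 in the homozygous tumor, and 5.57 and 5.48 in normal pituitary. The lowest tumor stood 2.22 log2 units above the higher normal sample. The log2 fold change was 2.67 in heterozygous tumors (SE 0.17, adjusted p = 0.000285) and 2.26 in the homozygous tumor (SE 0.25, adjusted p = 0.0102). Both normal values were under the median signal, so the size of the change is not exact.

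Birc5 codes for survivin, which docks the complex on centromeric chromatin. Its log2 signal (1424278_a_at) was 8.05, 7.73, 7.40 and 7.55 in heterozygous tumors, 7.45 in the homozygous tumor, and 5.04 and 5.62 in normal pituitary. The homozygous tumor lay within the range of the heterozygous ones. Birc5 was 5.11-fold higher in heterozygous tumors (log2 fold change 2.35, SE 0.23, adjusted p = 0.000749) and 4.34-fold higher in the homozygous tumor (2.12, SE 0.32, adjusted p = 0.0242). Incenp, the scaffold of the complex, had log2 signals (1439436_x_at) of 8.74, 8.96, 8.56 and 8.60 in heterozygous tumors, 8.46 in the homozygous tumor, and 7.20 and 7.31 in normal pituitary. Here tumor B was the highest. Incenp had a log2 fold change of 1.46 in heterozygous tumors (SE 0.14, adjusted p = 0.000795) and 1.20 in the homozygous tumor (SE 0.20, adjusted p = 0.0313). Aurkb, the Aurora B kinase itself, had a log2 fold change of 1.43 in heterozygous tumors (adjusted p = 0.00495), and 0.94 in the homozygous tumor, where it was not called (adjusted p = 0.180).

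Of the mitotic kinases Nek2 and Plk1, Nek2 was called in heterozygous tumors. Nek2, a kinase of centrosome separation that also acts on Ndc80, had log2 signals (1437580_s_at) of 8.64, 8.13, 7.66 and 8.16 in heterozygous tumors, 7.63 in the homozygous tumor, and 6.08 and 6.37 in normal pituitary. Nek2 had a log2 fold change of 1.92 in heterozygous tumors (SE 0.25, adjusted p = 0.00231) and 1.41 in the homozygous tumor, where it was not called (SE 0.35, adjusted p = 0.0914). Plk1, the Polo-like kinase of mitotic entry and kinetochore attachment, had log2 signals (1448191_at) of 7.53, 6.86, 6.83 and 6.84 in heterozygous tumors, 6.76 in the homozygous tumor, and 5.81 and 6.32 in normal pituitary. Tumor A stood apart from the other tumors, which differed little among themselves. The log2 fold change of 0.95 in heterozygous tumors (SE 0.24, adjusted p = 0.0299) passed the test but not the fold threshold, and 0.70 in the homozygous tumor passed neither (adjusted p = 0.341). Without tumor C or D, Plk1 was called in heterozygous tumors at 1.02 and 1.01.

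The 5 genes of the microtubule-binding outer kinetochore were all higher in heterozygous tumors. Of these, Ndc80, Nuf2, Spc24 and Spc25, code for the 4 subunits of the Ndc80 complex, and Ska1 belongs to the complex that keeps hold of moving microtubule ends. Spc25 had log2 signals (1424118_a_at) of 9.05, 8.84, 7.98 and 8.54 in heterozygous tumors, 8.25 in the homozygous tumor, and 6.37 and 6.75 in normal pituitary. Tumor C was the lowest tumor, below the homozygous one. Spc25 had a log2 fold change of 2.04 in heterozygous tumors (SE 0.29, adjusted p = 0.00319) and 1.69 in the homozygous tumor (SE 0.41, adjusted p = 0.0825). Ska1 had log2 signals (1450496_a_at) of 5.98, 6.03, 5.86 and 5.99 in heterozygous tumors, 5.67 in the homozygous tumor, and 4.45 and 4.09 in normal pituitary. The pair averages were close together, with an SD of 0.07 among the heterozygous tumors. Single arrays of a pair lay further apart, at 5.78 and 6.17 in A, 6.33 and 5.73 in B and 6.12 and 5.86 in D. Those of C were at 5.84 and 5.88. The SD and SE rest on the averages and do not show this spread between arrays. Ska1 was 3.24-fold higher in heterozygous tumors (log2 fold change 1.69, SE 0.13, adjusted p = 0.000432) and, alone in this group, was called in the homozygous tumor (1.40, SE 0.19, adjusted p = 0.0178). The other 3 genes had log2 fold changes of 1.25 to 1.59 in heterozygous tumors and 0.93 to 1.13 in the homozygous tumor.

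Neither gene of the Mis12 complex, the link between the inner kinetochore and the Ndc80 complex, was called. Mis12 had log2 signals (1424717_at) of 7.85, 7.86, 8.00 and 7.78 in heterozygous tumors, 7.65 in the homozygous tumor, and 7.74 and 7.87 in normal pituitary. The groups overlapped, and the interval of the log2 difference between heterozygous tumors and normal pituitary ran from -0.20 to 0.34 (95%, adjusted p = 0.712). Dsn1 had log2 signals (1417139_at) of 5.97, 5.76, 5.54 and 5.74 in heterozygous tumors, 5.54 in the homozygous tumor, and 4.96 and 5.28 in normal pituitary. Its values lay near the median signal, all tumors being above both normal samples. The log2 fold change of 0.63 in heterozygous tumors (SE 0.16, adjusted p = 0.0272) passed the test but not the fold threshold, and that in the homozygous tumor was 0.42 (adjusted p = 0.371). The remaining subunits of the complex, Nsl1 and Pmf1, which are outside the list, had log2 fold changes in heterozygous tumors of -0.38 (adjusted p = 0.0850) and 0.03 (adjusted p = 0.870).

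Of the 8 genes of centromere chromatin and the inner kinetochore, 6 rose in heterozygous tumors and 2, Cenpa and Cenpp, also in the homozygous tumor. Cenpa is the histone H3 variant that defines the centromere. Its log2 signal (1450842_a_at) was 8.20, 7.90, 7.51 and 7.69 in heterozygous tumors, 7.52 in the homozygous tumor, and 5.78 and 5.51 in normal pituitary. The homozygous tumor was level with tumor C, and both were far above normal pituitary. The log2 fold change was 2.18 in heterozygous tumors (SE 0.20, adjusted p = 0.000682), or 4.53-fold, and 1.88 in the homozygous tumor (SE 0.29, adjusted p = 0.0249). Cenpp had log2 signals (1429095_at) of 7.36, 7.34, 7.12 and 7.34 in heterozygous tumors, 6.76 in the homozygous tumor, and 5.57 and 5.71 in normal pituitary. The homozygous tumor fell between the groups. Cenpp had a log2 fold change of 1.65 in heterozygous tumors (SE 0.12, adjusted p = 0.000354) and 1.12 in the homozygous tumor (SE 0.17, adjusted p = 0.0249).

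Cenpk and Cenph, which with Cenpi form a subcomplex that helps recruit the outer kinetochore, both rose in heterozygous tumors. Cenpk had log2 signals (1418264_at) of 8.31, 8.46, 7.63 and 8.54 in heterozygous tumors, 7.57 in the homozygous tumor, and 5.66 and 6.06 in normal pituitary. Cenph had log2 signals (1422016_a_at) of 6.76, 6.74, 5.95 and 6.55 in heterozygous tumors, 5.86 in the homozygous tumor, and 4.08 and 4.35 in normal pituitary. For both, tumor C and the homozygous tumor were clearly lower than tumors A, B and D and clearly higher than normal pituitary. The log2 fold change in heterozygous tumors was 2.38 for Cenpk (SE 0.26, adjusted p = 0.00131) and 2.28 for Cenph (SE 0.24, adjusted p = 0.00105). In the homozygous tumor Cenpk was at 1.71 (adjusted p = 0.0628) and Cenph at 1.64 (adjusted p = 0.0541), over 2-fold but not called. Cenpi and Cenpm were at 2.11 and 1.34 in heterozygous tumors, both called, and at 1.29 and 0.93 in the homozygous tumor, not called.

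Cenpn and Cenpq, 2 inner kinetochore genes already well expressed in normal pituitary, were not called in either genotype. Cenpn, whose protein reads the Cenpa nucleosome, had log2 signals (1427105_at) of 7.88, 7.41, 7.18 and 7.37 in heterozygous tumors, 7.31 in the homozygous tumor, and 7.25 and 6.99 in normal pituitary. The groups overlapped through tumor C, and the log2 fold change was 0.34 in heterozygous tumors (SE 0.20, adjusted p = 0.260). The second probe set of the gene, 1452305_s_at, was called in heterozygous tumors at 1.30 (SE 0.24, adjusted p = 0.00996), so the result for Cenpn depends on the probe set. Cenpq, of the same subcomplex as Cenpp, had log2 signals (1423620_at) of 8.07, 8.35, 7.95 and 8.52 in heterozygous tumors, 8.02 in the homozygous tumor, and 8.18 and 8.19 in normal pituitary. Heterozygous tumors lay on both sides of normal pituitary, with an interval of the log2 difference from -0.37 to 0.45 (95%, adjusted p = 0.895).

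Of the 5 genes of the corona and Rod-Zw10-Zwilch complex, which coat the outside of unattached kinetochores, 4 rose in heterozygous tumors and none was called in the homozygous tumor. Cenpf, a large coiled-coil protein of this layer, had log2 signals (1427161_at) of 8.37, 8.04, 7.44 and 7.99 in heterozygous tumors, 7.39 in the homozygous tumor, and 5.60 and 5.91 in normal pituitary. Its groups did not overlap. Cenpf had a log2 fold change of 2.20 in heterozygous tumors (SE 0.24, adjusted p = 0.00130) and 1.64 in the homozygous tumor (SE 0.35, adjusted p = 0.0568). Kntc1, which codes for Rod, had log2 signals (1435575_at) of 7.69, 7.69, 6.88 and 7.46 in heterozygous tumors, 6.15 in the homozygous tumor, and 5.27 and 5.28 in normal pituitary. The homozygous tumor stood between normal pituitary and the lowest heterozygous tumor, well apart from both. Kntc1 was 4.46-fold higher in heterozygous tumors (log2 fold change 2.16, SE 0.23, adjusted p = 0.00117), and its log2 fold change in the homozygous tumor was 0.87 (SE 0.33, adjusted p = 0.221).

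Cenpe, the kinesin motor of the corona, and Zwilch, the partner of Rod, were called in heterozygous tumors at log2 fold changes of 1.57 and 1.09. In the homozygous tumor they were at 0.74 and 0.88, not called. The call in heterozygous tumors was lost for Cenpe without normal sample 1 (adjusted p = 0.0598) and for Zwilch without normal sample 2 (0.99, just under 2-fold). Zwint, which joins the Rod-Zw10-Zwilch complex to the kinetochore, had log2 signals (1423724_at) of 12.49, 12.40, 12.37 and 12.68 in heterozygous tumors, 12.51 in the homozygous tumor, and 12.31 and 12.68 in normal pituitary. This was a high signal in every sample, with no separation of the groups (log2 fold change -0.01 in heterozygous tumors, 95% interval -0.36 to 0.34, adjusted p = 0.975).

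**Figure D3:**
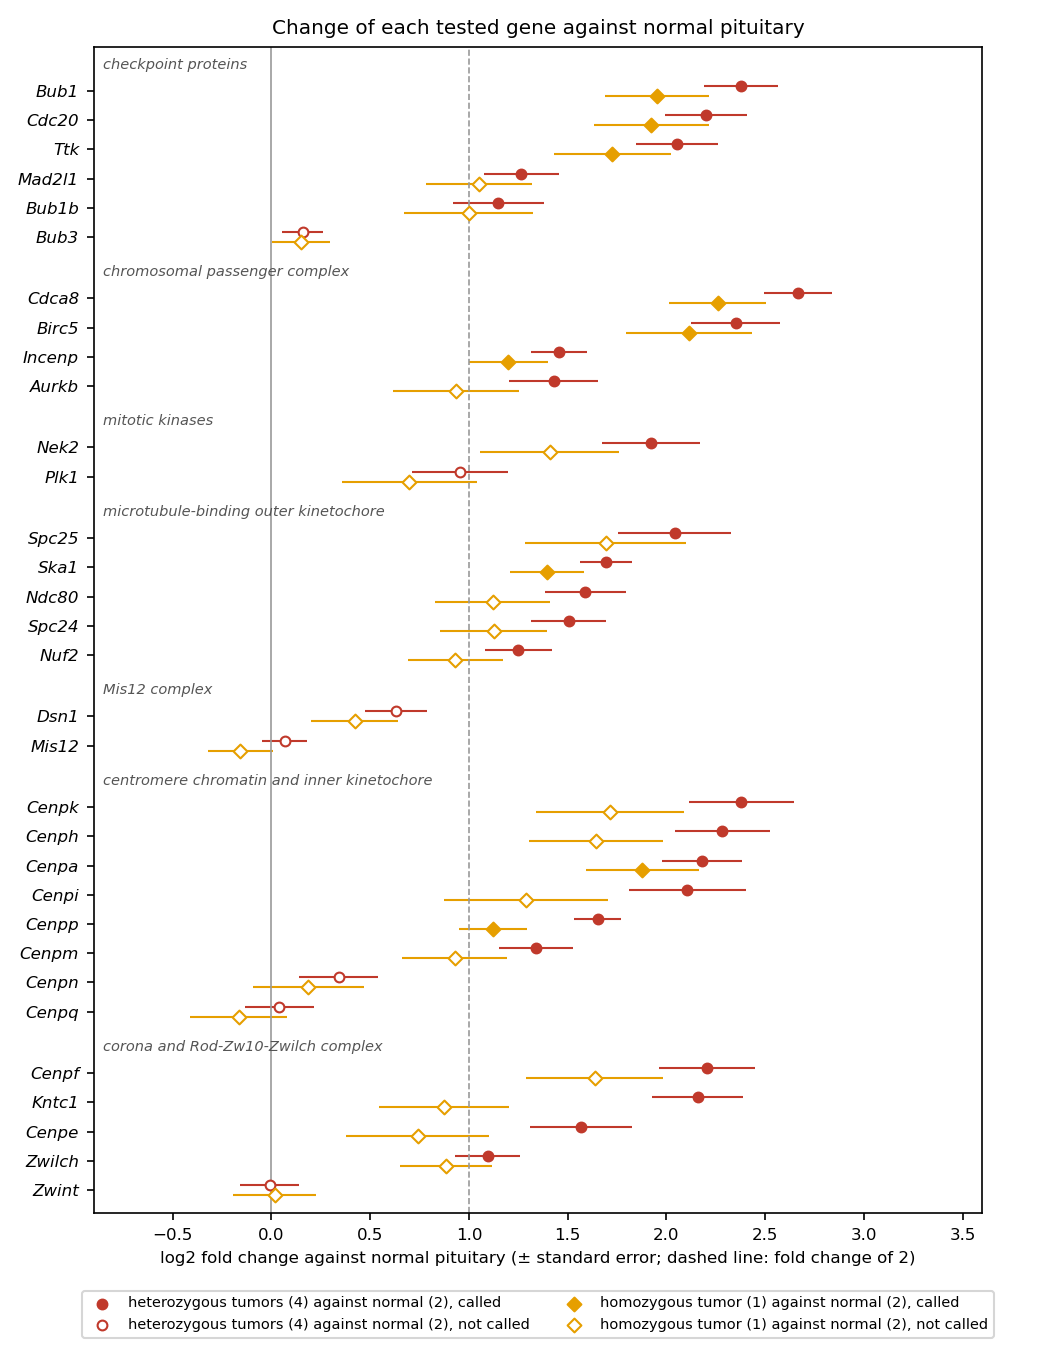
Log2 fold change against normal pituitary, with the standard error, for the 32 genes tested, grouped by role. Filled symbols are called (past both thresholds; the dashed line is a 2-fold change); 25 genes are filled for heterozygous tumors (circles) and 9 for the homozygous tumor (diamonds).

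In the homozygous tumor 9 of the 33 genes were called higher and none lower, against 1.43% of all genes tested called higher. All 9 were also called in heterozygous tumors. The comparisons share the normal samples, and of the 176 genes called higher in the homozygous tumor over the whole array 82.4% were called in heterozygous tumors too, or 1.18% of all genes tested. These 9 were Bub1, Ttk, Cdc20, Birc5, Cdca8, Incenp, Ska1, Cenpa and Cenpp. Another 9 genes were over 2-fold higher in the homozygous tumor without reaching the p threshold. The homozygous tumor was above both normal samples for 29 of 32 genes, against 37.6% of all genes tested, and the median log2 fold change was 1.12, against -0.03 over all genes tested. The count rests on both normal samples, since 1 gene, Ska1, was called without normal sample 1 (0.138% of all genes) and 0 without normal sample 2 (0.146%). Without heterozygous tumor C, 15 genes were called. With the 12 arrays taken separately, 18 genes were called in the homozygous tumor, against 3.09% of all genes.

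**Figure D4:**
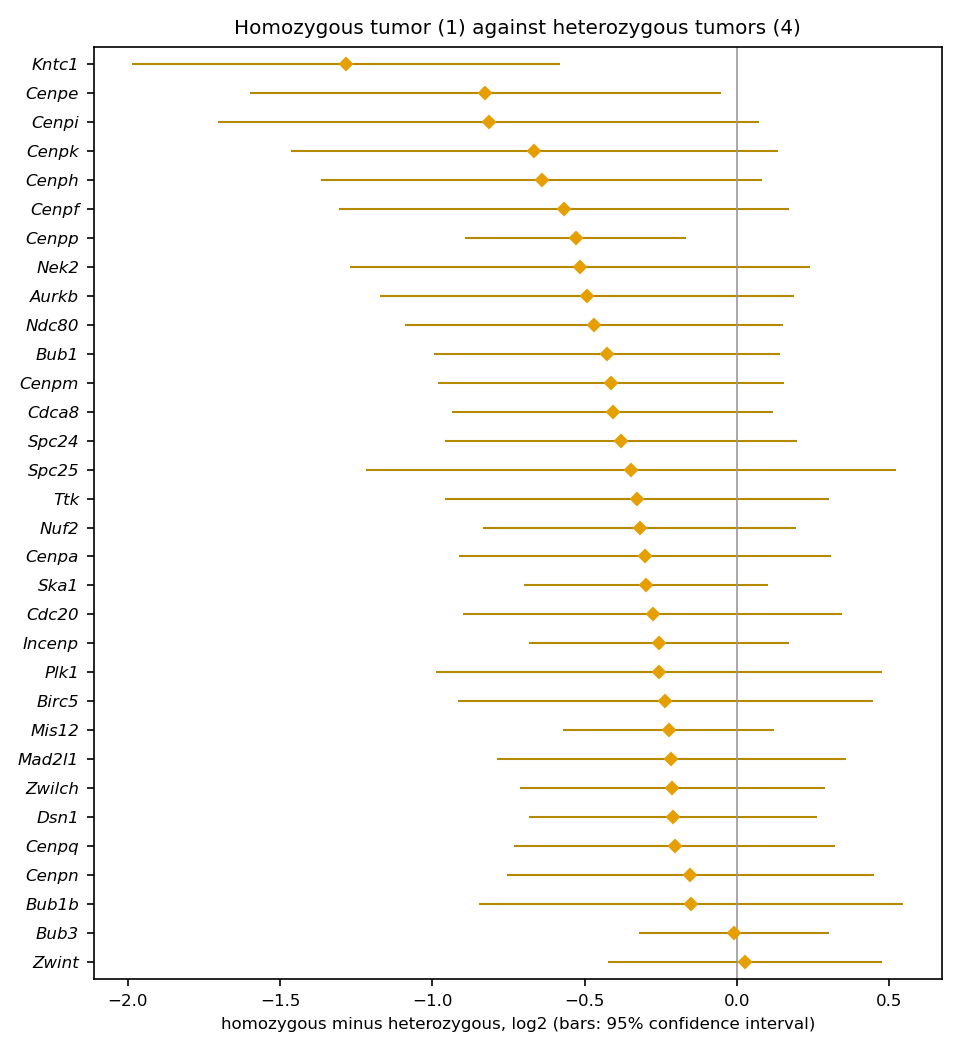
Log2 signal in the homozygous tumor minus the mean of the 4 heterozygous tumors for each of the 32 genes tested, ordered by size, with the 95% confidence interval. The intervals of Kntc1, Cenpe and Cenpp lie wholly below 0, and those of the other 29 genes include it.

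Between the tumor genotypes no gene of the list was called. The homozygous tumor lay below the mean of the heterozygous tumors for 31 of 32 genes, against 55.7% of all genes tested, and below all 4 of them for 19, against 26.9%. The median difference was -0.32, and -0.03 over all genes tested. Of 11 other genes of dividing cells that were tested, described below, 11 lay below that mean and 6 below all 4 heterozygous tumors. Their median difference was -0.58, so the lower level was not particular to the list. Before adjustment 3 genes had a limma p under 0.05, and after it none did, also with a mean-variance trend in the fit, where 0 genes were called. Over all genes 0.0488% were called lower in the homozygous tumor. Kntc1 differed the most, at -1.28 (95% interval -1.99 to -0.58, adjusted p = 0.222), and it was called without tumor C (-1.47, adjusted p = 0.0468). Cenpe was at -0.83 (interval -1.60 to -0.05, adjusted p = 0.501) and Cenpp at -0.53 (interval -0.89 to -0.17, adjusted p = 0.339). For Zwint, on the opposite side of 0, the interval was -0.43 to 0.48. The homozygous side of each difference rests on 1 sample.

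Heterozygous tumors differed among themselves in the same way for most of the list. Tumor A was the highest for 24 of the 32 genes tested, and tumor C the lowest for 30, including all 25 genes called. Over the 25 genes the median height above the normal mean was 2.22 log2 units in tumor A, 1.90 in B, 1.48 in C and 1.94 in D, with 1.29 in the homozygous tumor. Over all genes tested the heterozygous tumors had medians of -0.01 to 0.00. Cenpk, Cenpq and Zwint are examples of another order, with tumor D the highest.

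Of the 33 genes, 19 had more than 1 probe set, 73 probe sets in all. Probe sets of one gene mostly changed in the same direction. Those of Cdca8 had log2 fold changes of 1.93 to 2.67 in heterozygous tumors, and those of Cenpp 1.65 and 1.68. The second probe sets of Bub1b and Cenpf were called in the homozygous tumor as well, at 1.47 (adjusted p = 0.0361) and 1.26 (adjusted p = 0.0240), while the brightest were not. Conversely, 3 genes called there by the brightest probe set had others that were not. These were 1416664_at (1.35, adjusted p = 0.141) and 1439394_x_at (0.36, adjusted p = 0.504) of Cdc20, 1428481_s_at of Cdca8 (1.49, adjusted p = 0.0723) and 1423092_at of Incenp (0.55, adjusted p = 0.328). Probe set 1439394_x_at of Cdc20, at 0.61 (adjusted p = 0.0491), and 1423092_at of Incenp, at 0.80 (adjusted p = 0.0216), were under 2-fold in heterozygous tumors. The other tested probe sets of Zwint ranged from 0.09 to 0.76 in heterozygous tumors, and none was called. Of these, 1427539_a_at (0.76, adjusted p = 0.00318) and 1429787_x_at (0.50, adjusted p = 0.0183) passed the p threshold but not the fold threshold, unlike the brightest probe set.

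**Figure D5:**
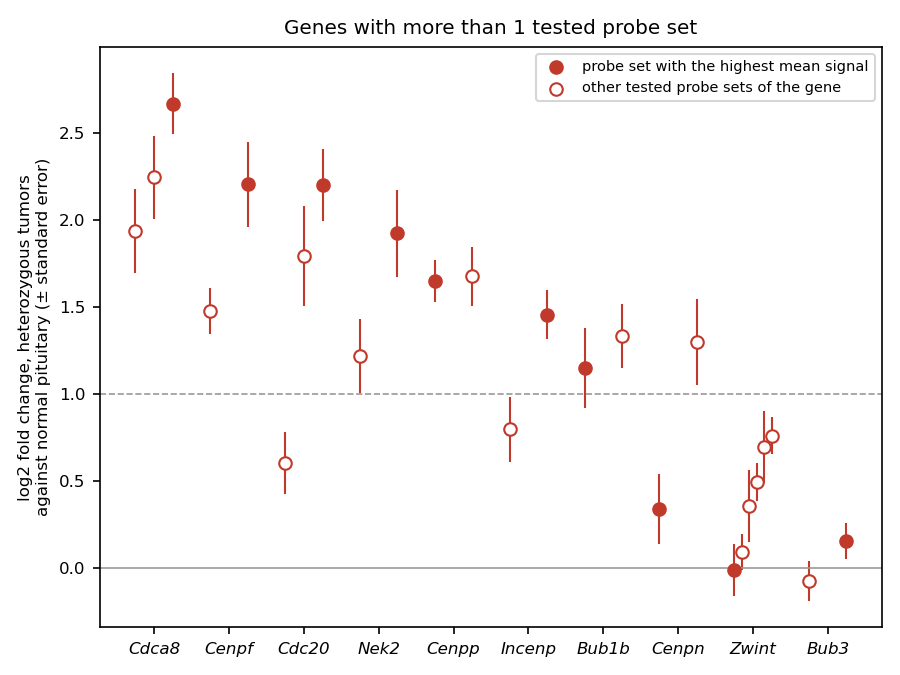
Log2 fold change of heterozygous tumors against normal pituitary, with the standard error, for each tested probe set of the 10 genes with more than 1. Filled circles are the brightest probe set, which stands for the gene; for Cenpn the brightest is at 0.34 and the other at 1.30, above the dashed line of a 2-fold change.

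Among 40 other kinetochore, centromere and checkpoint genes, 36 were tested. Of these, 12 (33.3%) were called higher and none lower in heterozygous tumors, against 5.57% of all genes tested called higher. The median of the 36 log2 fold changes was 0.38. The homozygous tumor had 3 called higher (8.33%), Cdca5, Kif2c and Knl1, against 1.43% of all genes tested. Psrc1, a spindle protein that recruits the microtubule depolymerase Kif2a, was at 2.90 in heterozygous tumors (SE 0.40, adjusted p = 0.00283) and 2.36 in the homozygous tumor (adjusted p = 0.0809). Cdca5, or sororin, which protects cohesion of sister chromatids, was at 2.37 (adjusted p = 0.000260) and 2.43 (adjusted p = 0.00510) in the heterozygous and homozygous comparisons. Kif2c, a microtubule depolymerase of the centromere, was at 1.83 (adjusted p = 0.000454) and 1.35 (adjusted p = 0.0249). Most of the genes not called had normal signals above the median, as Zw10 (-0.16 in heterozygous tumors) and Cenpt (0.12) did.

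Of 17 genes of the anaphase-promoting complex and its regulators, 2 were higher in both genotypes and none lower. These were Ube2c, the ubiquitin-conjugating enzyme that works with the complex, at 2.31 in heterozygous tumors and 1.98 in the homozygous tumor (adjusted p = 0.000984 and 0.0327), and Fbxo5, or Emi1, an inhibitor of the complex, at 1.63 and 1.48 (adjusted p = 0.000893 and 0.0261). Anapc1, the largest subunit, was at -0.71 in heterozygous tumors (adjusted p = 0.00537), short of a 2-fold change. Of 11 other dividing-cell genes tested, 10 rose in heterozygous tumors and 6 in the homozygous tumor. Mcm6, of the replicative helicase, was at 3.77 and 2.77 and Rrm2, of ribonucleotide reductase, at 2.73 and 2.47 in the heterozygous and homozygous comparisons, and both were called in each. Mki67, which codes for Ki-67, was at 2.65 in heterozygous tumors (adjusted p = 0.00140) and 1.98 in the homozygous tumor, where it was not called (adjusted p = 0.0575). Foxm1, a transcription factor of late cell cycle genes, was at 0.01 in heterozygous tumors (adjusted p = 0.973). The shares called higher in heterozygous tumors were 11.8% of the 17 genes and 90.9% of the 11, against 5.57% of all genes tested. In the homozygous tumor the shares were 11.8% and 54.5%, against 1.43% of all genes tested.

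Other cell types differed between the groups as well. Of 11 macrophage markers tested of 12, 7 (63.6%) were called in heterozygous tumors and 1 (9.09%), Lyz2, in the homozygous tumor, all higher. Of all genes tested, 5.57% and 1.43% were called higher in the heterozygous and homozygous comparisons. The macrophage markers are taken first. Their summed linear signal was 6773, 8635, 6490 and 4663 in heterozygous tumors A to D, 3428 in the homozygous tumor, and 1222 and 1491 in normal pituitary. The sum over the other dividing-cell genes was 16722, 16112, 10745 and 15912 in heterozygous tumors A to D, 9371 in the homozygous tumor, and 3134 and 3858 in normal pituitary. Among heterozygous tumors the macrophage sum was highest in tumor B and lowest in D, and the dividing-cell sum was highest in A and lowest in C. Both sums were lowest in normal pituitary and, among tumors, lowest in the homozygous one. Ptprc, the leukocyte antigen CD45, was called higher in both genotypes, while the T cell marker Cd3e was not (-0.04 and 0.09). Cd3e was under the median signal in all 7 samples, and Cd3g and Cd79a were too dim to be tested. These markers therefore say little about T and B cells. Of 8 hormone-cell markers, 3 were called lower in heterozygous tumors, Fshb, Lhb and Tshb. The summed linear signal of all 8, which include the targeted gene Pomc, was 72219 to 113587 in heterozygous tumors. It was 85305 in the homozygous tumor, and 137912 to 138023 in normal pituitary. Pomc had log2 signals of 15.08 to 15.30 in heterozygous tumors and normal pituitary and 7.18 in the homozygous tumor. The place of the homozygous tumor among the heterozygous ones in this sum therefore depends on Pomc. Pomc had a log2 fold change of -7.92 in the homozygous tumor, and Pitx1 1.14. Of 3 melanotroph markers, Pax7 was called higher in heterozygous tumors (1.48, adjusted p = 0.00262), and their sum was 4726 to 7330 in heterozygous tumors, 3470 in the homozygous tumor, and 2865 to 3216 in normal pituitary. Of 4 tested markers of posterior lobe glia and folliculostellate cells, Slc1a3 (-3.23 and -2.51) and Aldh1l1 (-1.26 and -1.72) were called lower in both heterozygous and homozygous tumors. Sox2 was at 0.26 and -0.25 and S100b at 0.09 and -0.20 in the same comparisons. The sum of that list was 1027 to 1467 in heterozygous tumors, 938 in the homozygous tumor, and 1440 to 1612 in normal pituitary. Of 6 fibroblast markers, Dcn, Pdgfra and Lum were called lower in heterozygous tumors. Col1a2 (-0.58), Col3a1 (0.54) and Col1a1 (0.48) were not called there. The sum of all 6 was 2582 to 6851 in heterozygous tumors, 3005 in the homozygous tumor, and 5148 to 5292 in normal pituitary. Of 6 endothelial markers, Tek was called lower in heterozygous tumors (-1.42, adjusted p = 0.00208), and the sum was 469.8 to 585 in heterozygous tumors, 734 in the homozygous tumor, and 693 to 712 in normal pituitary. The part of these cell types in the results for the list was not tested.

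Xist, the RNA of the inactive X chromosome of female cells, had log2 signals of 4.58, 10.93, 5.0 and 11.25 in heterozygous tumors A to D, 11.20 in the homozygous tumor, and 5.07 and 4.57 in normal pituitary. Tumors A and C, with low Xist like both normal samples, were the highest and the lowest heterozygous tumors for most of the list. The lone homozygous sample had high Xist and both normal samples low Xist. For the homozygous tumor against normal pituitary, Xist level and genotype therefore cannot be told apart from these samples alone. Heterozygous tumors included both low Xist (A and C) and high Xist (B and D). With the Xist level as a covariate 26 genes were called in heterozygous tumors and 1, Cdca8, in the homozygous tumor.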

How the data were processed

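RNA of 12 pituitary samples was hybridized to Affymetrix Mouse Genome 430 2.0 arrays. For normalization the authors used the Robust Multichip Average (RMA) method and deposited log2 values, 1 per probe set. This was done in Affymetrix Expression Console per the labels and in GeneSpring GX per the methods. RMA forces equal distributions on the arrays, so a shift common to all genes is lost. Depth has no counterpart on arrays, and their number limits the precision.

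Of 45101 probe sets, 34945 name 1 gene in the platform annotation, 932 several and 9160 none. A probe set was tested where 2 or more arrays reached the median of all values, 5.74 (24486 probe sets, 12305 genes). The methods' filter on detection calls was not applied, since those calls were not used here. Arrays of a tumor pair, recognised by their likeness, were averaged, which left 7 samples. Limma 3.58.1 in R 4.3.3 fitted genotype means with 4 residual degrees of freedom, and p-values were adjusted by the Benjamini-Hochberg method over all probe sets tested. Intervals are 95% intervals from the moderated fit. The script was tested on simulated data.

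The genes, lists and alternatives were chosen with earlier results of these data known. Values and full statistics are given for the 2 genes of each role with the largest change in heterozygous tumors, those called in the homozygous tumor and those not called in heterozygous tumors. The other genes are given by range, with single values where a call depended on a sample. In other lists the 3 genes with the largest change are named, and further genes named there were chosen after their values were seen. No correlation across samples is given, since the genotypes form separate clusters. Replicate numbers shared between genotypes do not pair the samples. Promoter sequences are from RefSeq. Raw image files and human arrays were not analysed here.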

Additional observations from a re-analysis of the deposited data

Results flagged for a closer look

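The 4 heterozygous tumors were examined for a sample that stands apart from the other 3 by Dixon's test, gene by gene, over the 33 genes. Of these, 3 genes had such a sample, and chance alone flags about 1 group in 20. Plk1 had a log2 signal of 7.53 in heterozygous tumor A, above the next tumor at 6.86. Cenpp had 7.12 in tumor C, below the next tumor at 7.34. Cenpe had 6.44 in tumor C, below the next at 7.11. Tumors A and C were also the highest and lowest heterozygous tumors for most of the other genes.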

How the results depend on the processing

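In heterozygous tumors 23 to 26 genes were called when each sample was left out in turn, and 24 to 26 under every other alternative run, against 25. In the homozygous tumor the count of 9 was less stable. It was 0 to 15 when each sample was left out, 0 and 1 without a normal sample and 15 without heterozygous tumor C. It was 18 with the 12 arrays as separate samples and in the one-way F test over the genotypes, 16 with the pair as a random block, 15 with only the samples of the contrast and 1 with the Xist level as a covariate. Averaging the tested probe sets of each gene gave 9 genes, 7 of them among the same genes. Between the genotypes, against 0 genes, 0 to 1 was called when each sample was left out, and 1 with the 12 arrays as separate samples or in the F test, Kntc1 each time. The lone homozygous sample and the 2 normal samples limit what can be shown there, and genes dim in normal pituitary have inexact fold changes. No share over all genes is given for the F test, random block, contrast samples alone, Xist covariate or a tumor left out. Those counts therefore say nothing particular to the list.

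The number of the arrays was tried as a pairing, with arrays 1 and 2 of each genotype and the replicate block in the fit. It called 26 genes in heterozygous tumors, 18 in the homozygous tumor and 5 lower in homozygous than in heterozygous tumors. Without the block, an alternative chosen after seeing the data, the same arrays gave 26, 18 and 5. Arrays of the same number did not deviate together (correlations of 0.07, -0.02 and -0.003), and arrays 1 and 2 of the heterozygous mice are tumor A alone. No share called over all genes is given for these fits, so their counts say nothing particular to the list.

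Genes close to 0 changed sign, without being called. Cenpq in heterozygous tumors was at -0.00331 with quantile normalization, -0.0248 centred on housekeeping genes, -0.11 with arrays 1 and 2 with or without the block, -0.17 with the Xist level as a covariate, and -0.0611 to 0.13 with a sample left out. Zwint in heterozygous tumors was at -0.19 to 0.17 with a sample left out and 0.40 over the mean of its probe sets. In the homozygous tumor Zwint was at -0.0151 with quantile normalization, -0.0320 with housekeeping centring, -0.17 to 0.20 with a sample left out and -0.0818 with Xist, and Bub3 at -0.0140 over the mean of its probe sets. In homozygous against heterozygous tumors Bub3 was at 0.00525 with housekeeping centring and -0.0352 to 0.0105 with a sample left out, and Zwint at -0.0141 to 0.0892 with a sample left out, -0.0250 with Xist and -0.17 over its probe sets. The cause of these shifts was not tested.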
